A study of Homo sapiens with 6 samples.

Results

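ARRDC4 encodes an arrestin-domain protein, and this account follows its transcript in HCT116 cells, a human line established from a colon carcinoma, with and without a short hairpin RNA (shRNA) against ERRα. The arrays carried 8 probe sets that were taken to measure it, of 257430 probe sets in all. It is 1 of 1458 genes that the authors' deposited table of the comparison names. Of these, 2 bear the name ARRDC4 in that table, which names only probe sets that differed between the groups. The other 6 were taken because their identifiers form an unbroken run with the named ones, and they are not known to belong to the gene. Both named probe sets were therefore chosen by the shERRα against shscrambled difference itself. That difference is described below and not tested, and it is not independent evidence of its own direction. The p-values printed for probe sets of this run only show how the listing rule sorted them.

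Both groups were grown in medium with 10% serum, infected with a lentivirus for 48 h and selected with puromycin for 48 h. The 3 control arrays come from cells given a scrambled shRNA (shscrambled), and the 3 others from cells given the shRNA against ERRα (shERRα). ERRα, the product of ESRRA, is a nuclear receptor without a known natural ligand that switches on genes of energy metabolism. The labels call the arrays biological replicates but do not say whether they came from separate infections, and with this design the loss of ERRα cannot be told apart from other effects of that hairpin.

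ARRDC4 belongs to the alpha-arrestins, adaptor proteins that recruit ubiquitin ligases of the NEDD4 family to membrane proteins. Its best known relative is TXNIP, and both proteins are known to restrain glucose uptake. Transcription of both genes is known to be driven by MondoA or ChREBP with their partner MLX, basic helix-loop-helix factors that become active when glucose phosphates accumulate and that bind carbohydrate response elements built from E-box sequences. The gene is thus commonly read as a reporter of glucose supply inside the cell.

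The upstream region of ARRDC4 is shown because those factors act through E-boxes and because ERRα has a binding sequence of its own. The sequence below holds the 250 bases before the annotated start, from RefSeq, build GRCh38.p14, chr15:97960453-97960702, plus strand. Capitals mark the E-box CACGTG and the CCAAT boxes (CCAAT, or ATTGG on the other strand).
ARRDC4 upstream: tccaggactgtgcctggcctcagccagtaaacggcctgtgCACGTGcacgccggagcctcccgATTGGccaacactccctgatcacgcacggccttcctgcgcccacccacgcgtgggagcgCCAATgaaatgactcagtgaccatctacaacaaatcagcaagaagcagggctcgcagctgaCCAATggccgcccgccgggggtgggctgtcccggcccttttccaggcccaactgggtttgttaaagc
The window held 1 E-box, 210 to 205 bases before the start. Among 35116 promoter windows of the same length, 6.34% held at least 1 such E-box, with both strands searched for every motif. It also held 3 CCAAT boxes, the nearest 67 to 63 bases before the start, and 32.0% of the windows held at least 1. The share of windows with 3 or more was not computed. The ERR response element, searched as TNAAGGTCA, was not found in these letters; 0.854% of the windows held it. The half-site AGGTCA, which is part of that element, was not found either, and 12.1% of the windows held it. These matches describe letters only and say nothing about binding.

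The array values are log2 expression, normalised by the authors with RMA. Array medians lay between 4.28 and 4.43 log2 units. One array stood apart: shERRα replicate 1 correlated with the other 5 arrays across probe sets at 0.867 to 0.877, whereas the 10 pairs that leave it out reached 0.933 to 0.947. The target of the hairpin followed the labels. The median of the 2 named ESRRA probe sets was 4.86, 5.10 and 5.28 log2 units on the shscrambled arrays and 2.29, 2.60 and 2.23 on the shERRα arrays, although those probe sets too were listed for this difference. The values of shERRα replicates 1 and 3 lay under the 25th percentile of all probe set means, 2.41 log2 units, where signal is near background. Names are paired only with listed probe sets, so the cell type could be checked against few markers. As a rough scale, 5.12% of runs of at least 3 probe sets with consecutive identifiers held a probe set listed lower and 2.86% one listed higher. These shares were not matched to run size, and a longer run has more probe sets that could be listed. Of 8 colon epithelial markers 1 was listed, the adhesion protein CDH1, lower at 7 probe sets (4.18-fold), with a run difference of -1.77. The leukocyte list had 1 of 5 members listed, ITGAM (higher), and the list of fibroblast and endothelium markers 3 of 6, COL1A2 (lower), COL3A1 and KDR (both higher). These 4 rested on 1 probe set each, in runs of 30, 52, 52 and 32 probe sets that differed by 0.27, -0.11, 0.20 and 0.43. Their counts can therefore not be read against the shares above. The summed levels of these marker lists could not be given, and their part in the ARRDC4 result was not tested.

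ARRDC4 was lower with the shRNA against ERRα at both named probe sets. Probe set 7986355 measured 6.23, 6.50 and 5.94 log2 units on the shscrambled arrays and 2.23, 3.38 and 3.70 on the shERRα arrays. The groups were 2.24 log2 units apart at their nearest values, a gap wider than the spread inside either group. Its mean was 6.22 ± 0.28 (SD, n = 3) in shscrambled and 3.11 ± 0.77 (SD, n = 3) in shERRα, a difference of -3.12 log2 units (SE 0.44, limma), or 8.68-fold lower. Probe set 7986358 measured 5.63, 6.25 and 4.97 on the shscrambled arrays against 1.94, 3.05 and 2.13 on the shERRα arrays. Here the nearest values were 1.92 log2 units apart. The means were 5.62 ± 0.64 and 2.37 ± 0.60 (SD, n = 3 each), a difference of -3.25 (SE 0.46), or 9.49-fold lower. The shERRα mean of this probe set lay under the 25th percentile of all probe set means, 2.41 log2 units, where signal is near background and a fold is not exact. At 7986355 the value of shERRα replicate 1, 2.23, lay under that level too, so its fold is not exact either.

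In the authors' deposited table these probe sets stand at ratios of 0.115 (7986355, p = 0.00280) and 0.105 (7986358, p = 0.00303) of shERRα over shscrambled, with unadjusted p-values. The table keeps probe sets that differ by 2-fold or more with a p under 0.01, and of its 1427 lower ones 15 had a smaller ratio than 7986358. That rule listed 0.557% of the 256161 usable probe sets as lower and 0.271% as higher, and 2 of the 8 probe sets of the ARRDC4 run as lower. Nothing can be read from this comparison, since the rule chose the gene. The listed probe set nearest to the p threshold was 7986358, well inside it. Nearest on the outside stood 7986356, 3.89-fold lower, whose p under the same rule was 0.0132, and then 7986357 at 0.0168.

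**Figure D1:**
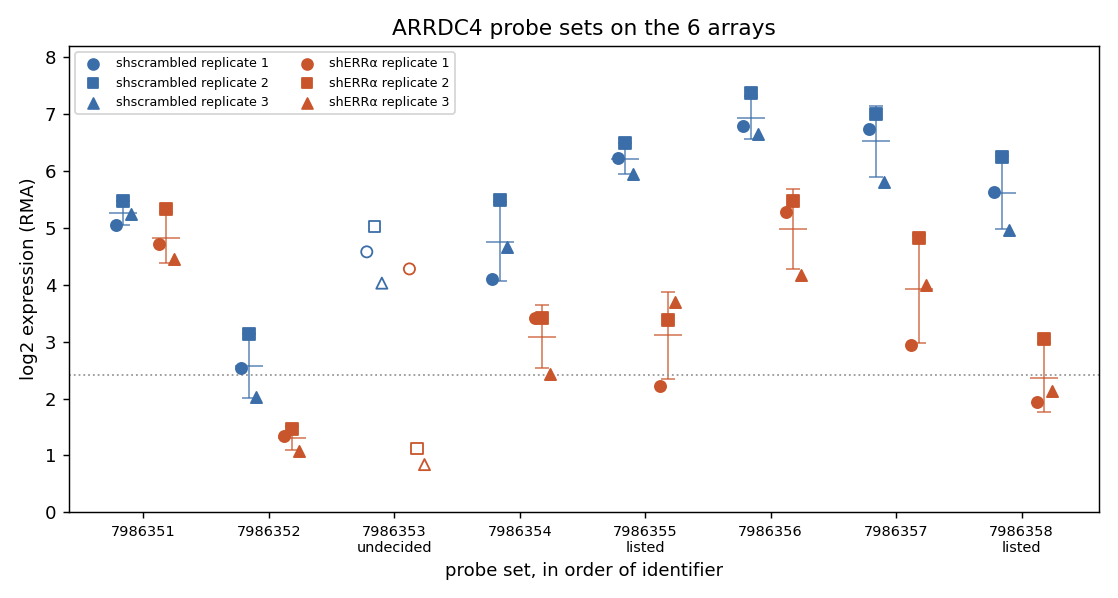
Log2 expression (vertical axis) of the 8 probe sets of the ARRDC4 run, in order of identifier. The 3 shscrambled arrays are blue and the 3 shERRα arrays orange. Symbols mark the replicate, horizontal ticks with bars the mean ± SD, and the dotted line the 25th percentile of all probe set means (2.41). Hollow symbols show the undecided probe set 7986353 at its low reading; at 7986355 and 7986358 all shERRα arrays sit below all shscrambled arrays.

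Most of the unnamed probe sets of the run were lower as well. They lie on the same arrays and, if they measure the same transcript, share its changes, so they are not replicates of the named ones. Probe set 7986357 measured 6.74, 7.0 and 5.81 log2 units in shscrambled and 2.95, 4.83 and 4.0 in shERRα, 6.02-fold lower, and the groups did not overlap. At 7986356, the brightest of the run, the values were 6.79, 7.37 and 6.65 against 5.28, 5.48 and 4.18, again with no overlap. The level that remained there was 25.7% of the control level, more than at the named probe sets.

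The usable probe sets with earlier identifiers showed smaller differences. For 7986354 the shscrambled arrays gave 4.11, 5.50 and 4.67 log2 units and the shERRα arrays 3.41, 3.41 and 2.44, 3.19-fold lower with groups 0.70 apart. A value identical in all 5 deposited decimals on at least 2 arrays, as seen here for shERRα replicates 1 and 2, occurred at 5.57% of all probe sets. The dim probe set 7986352 gave 2.54, 3.14 and 2.02 against 1.35, 1.47 and 1.07, so 4 of its 6 values lay under 2.41 and its 2.41-fold difference is not exact. Probe set 7986351 alone had overlapping groups, with 5.05, 5.48 and 5.25 in shscrambled and 4.71, 5.33 and 4.46 in shERRα, a difference of -0.43 (SE 0.33) that is within the spread of its shERRα arrays (SD 0.45).

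The remaining probe set, 7986353, could not be used in the summaries because the decimal mark of the deposited values was lost and 1 of its values can be read 2 ways. Its shscrambled arrays stood at 4.58, 5.02 and 4.03 log2 units. In shERRα it stood at 4.28 in replicate 1 and 0.84 in replicate 3, and in replicate 2 at either 1.12 or 11.18. With the lower reading the difference was -2.47 and with the higher one 0.89. The groups overlapped under both readings, since replicate 1 alone lay within the shscrambled range.

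Of the 7 usable probe sets, 7 had a lower shERRα mean, 6 were at least 2-fold lower and 6 had groups that did not overlap. The 2 named ones were listed for a difference of at least 2-fold, so their part in these counts was set by the choice. Of the 5 unlisted ones, all but 7986351 were at least 2-fold lower without overlap. Over all probe sets, 6.84% were at least 2-fold lower and 8.37% did not overlap with shERRα lower. The difference ranged from -0.43 at the first identifier to -3.25 at the last, with a median of -1.96. All 4 usable probe sets from 7986355 onward were lower by 1.96 log2 units or more, and the 3 usable ones before it by 1.67 or less. This split rests on leaving out 7986353, which lies among the earlier ones. Its low reading gave -2.47, which would break the split, and its high reading gave 0.89. Whether the identifiers follow the transcript from one end to the other is not given in the sources used here.

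**Figure D2:**
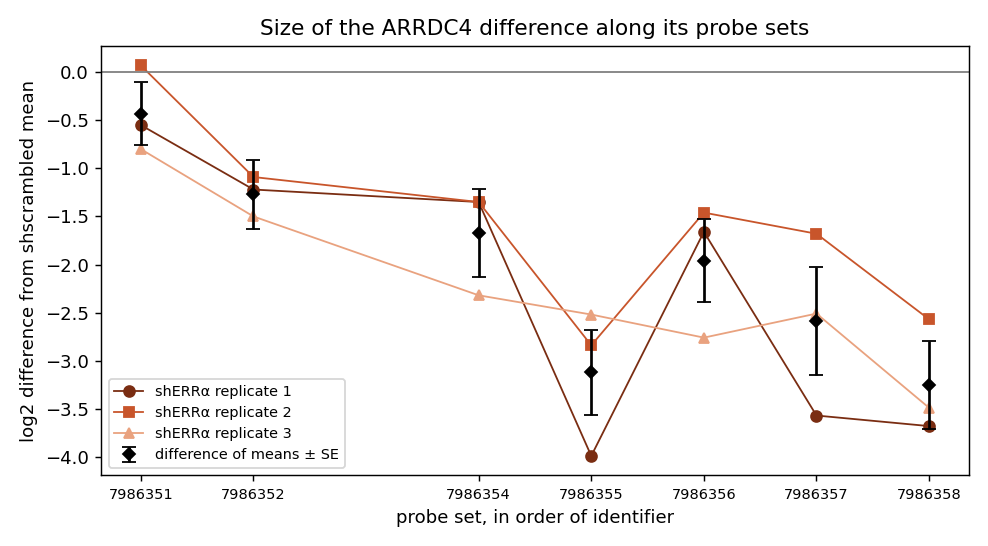
Log2 difference of each shERRα array from the shscrambled mean (vertical axis) at the 7 usable probe sets of the ARRDC4 run, in order of identifier. Black diamonds are the differences of group means ± SE (limma). The diamonds lie between -0.43 and -1.67 at the first 3 of these probe sets and between -1.96 and -3.25 at the last 4.

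Summarised by its median per array, the run stood at 5.63, 6.25 and 5.25 log2 units in shscrambled and at 2.95, 3.41 and 3.70 in shERRα. The nearest values of the groups were 1.55 log2 units apart. The means were 5.71 ± 0.51 and 3.35 ± 0.38 (SD, n = 3 each), a difference of -2.36 (SE 0.31), or 5.13-fold lower. The median fell on different probe sets on different arrays, so these values in part compare unlike probe sets. Within probe sets the median difference was smaller, -1.96, and with the mean of the run in place of its median the run differed by -2.04. In these bulk cultures, fewer cells expressing the gene and less transcript per cell cannot be told apart. The per-array median without the named probe sets gave 5.05, 5.50 and 5.25 against 3.41, 4.83 and 4.0, 2.27-fold lower (-1.18). The groups were then 0.21 apart, but these values too fell on different probe sets, so this is not a gap within 1 probe set. The unlisted probe sets' own differences had a median of -1.67 and ranged from -0.43 to -2.59, and only 7986351 had overlapping groups. Without shERRα replicate 1, the array that stood apart, the run differed by -2.16 and the named probe sets by -2.85.

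Among 19182 runs of at least 3 probe sets, which stand in for genes, 3 had a lower difference than ARRDC4. This place is not independent of the choice, since the run includes the 2 probe sets listed for this difference. Without them it differed by -1.18, and no place was computed for that value. At least 4-fold lower were 0.0313% of runs, at least 2-fold lower 1.56%, and 10.5% had groups that did not overlap with shERRα lower. The median difference of all runs was -0.0018. With limma and Benjamini-Hochberg adjustment at 0.05, 0 probe sets (0% called) and 0 runs (0% called) passed in either direction, which is given as the background and not as a test of ARRDC4. At an unadjusted p under 0.05 limma gave 18539 probe sets (7.24%) and 2039 runs (10.6%), and an equal-variance test also called 0 of each after adjustment.

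**Figure D3:**
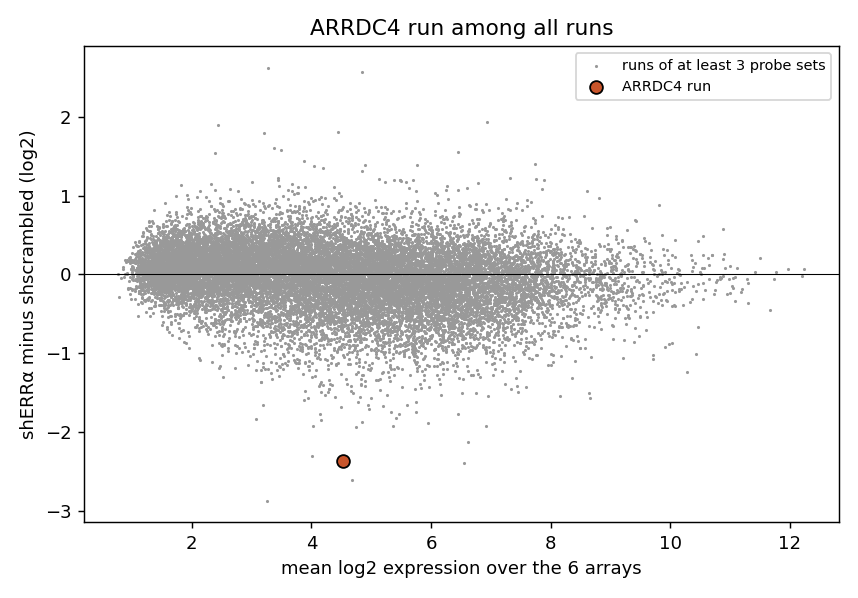
Difference of shERRα from shscrambled (log2, vertical axis) against mean log2 expression over the 6 arrays for the 19182 runs of at least 3 probe sets, each a grey point. The ARRDC4 run (orange) lies at -2.36, and 3 runs lie lower. It includes the 2 probe sets listed for this difference.

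The runs with neighbouring identifiers gave smaller differences. The run of 5 probe sets before it stood at 1.42 ± 0.22 log2 units in shscrambled and 1.71 ± 0.29 in shERRα (SD, n = 3 each), near background. The run of 23 probe sets after it stood at 5.22 ± 0.22 and 4.57 ± 0.59, a difference of -0.65 with overlapping groups, although 9 of its probe sets were at least 2-fold lower. Neither run carries a gene name in the authors' table.

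ARRDC4 also varied among the control arrays. The shscrambled SD of its run median, 0.51 log2 units, was larger than that of 90.9% of runs, whose median was 0.23. Replicate 2 was the highest shscrambled array at 7 of the 7 usable probe sets, while over all probe sets it was highest at 33.7%. Replicate 3 was the lowest of them at 5, and over all probe sets at 33.5%. Among the shERRα arrays, replicate 2 was highest at 5 of 7 (30.5% over all probe sets) and tied with replicate 1 at 1 more. Replicates 1 and 3 shared the lowest place at 3 and 4 (36.7% and 33.9% over all). The 7 probe sets lie on the same arrays, so these counts are not independent. The shERRα SD of 0.38 was larger than that of 60.9% of runs.

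Other genes of the pathway were read from lists of its parts. Because only listed probe sets have names, a member that is not listed has no value here. The shares given above, 5.12% of runs with a probe set listed lower and 2.86% with one listed higher, serve as a rough scale only. They were not matched to run size, and the members listed below lie in runs of 10 to 37 probe sets. Whether any of these lists holds more listed genes than its run sizes would give was not tested. Of 9 other arrestin family genes, among them TXNIP and ARRDC3, 0 were listed. The same held for 0 of the 13 genes of the Mondo and Max network, which includes the glucose sensors MLXIP and MLXIPL, and for 0 of 11 NEDD4 family ubiquitin ligases and partners.

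Of 20 glucose-response genes, 1 was listed, ATP citrate lyase ACLY, which makes cytosolic acetyl-CoA for lipid synthesis (lower). Its 8 listed probe sets had a median of 9.04, 9.0 and 9.10 log2 units in shscrambled and 7.51, 8.02 and 7.77 in shERRα, 2.43-fold lower. All shERRα arrays were below all controls, and its run of 28 differed by -1.04. Of 21 glucose transporters and hexokinases 3 were listed, all lower and each by 1 probe set. HKDC1, a hexokinase-domain protein, measured 4.07, 4.76 and 4.98 against 2.47, 2.83 and 2.54, and its run differed by -0.48. SLC2A4, the insulin-responsive glucose transporter, was 2.06-fold lower at its probe set, with a run difference of -0.03. SLC2A14 was near background at 2.50 ± 0.34 against 1.27 ± 0.21 (SD, n = 3 each), had a run difference of 0, and resembles SLC2A3 closely, so its signal cannot be assigned to it alone.

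Of 13 arrestin cargo and vesicle sorting genes 1 was listed, the iron transporter SLC11A2, a known cargo of arrestin-domain adaptors. Its 1 listed probe set was near background in shERRα (2.75 ± 0.39 against 1.27 ± 0.38, SD, n = 3 each), and its run of 20 differed by -0.85. The energy and nutrient sensing list had 2 of 14 listed, in opposite directions. TSC1, which restrains the growth kinase mTOR, measured 6.70, 6.18 and 6.53 log2 units against 4.68, 4.53 and 5.42, 3.02-fold lower with a run difference of -0.33. RPTOR, the scaffold of mTOR complex 1, measured 3.48, 4.13 and 3.39 against 5.08, 5.23 and 5.32, 2.91-fold higher with a run difference of 0.47. Each rested on 1 probe set.

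The named runs most like ARRDC4 were found by the root mean square difference of their run medians over the 6 arrays, each profile taken minus its own mean, among 1469 runs that carry a gene name. The nearest was TMEM87B, a Golgi membrane protein, at 0.37 log2 units. It stood at 5.75, 6.09 and 5.59 in shscrambled and 3.50, 4.23 and 4.58 in shERRα. KLHL24, a substrate adaptor of a ubiquitin ligase, followed at 0.39, with 6.47, 6.70 and 5.81 against 3.50, 4.99 and 4.74. In both runs replicate 2 was the highest control and replicate 1 the lowest shERRα array, as in the ARRDC4 run median that they were chosen to match. At the single ARRDC4 run probe sets, shERRα replicate 3 was lowest at 4 of 7 and replicate 1 at 3.

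The cell-surface peptidase DPP4 came next at 0.45 log2 units, with 6.16, 6.31 and 5.46 against 2.87, 4.18 and 3.07, the only one of the 5 with a larger run difference (-2.60) than ARRDC4. SMIM14, a small membrane protein, was also at 0.45, and SKIL, a repressor of SMAD transcription factors, at 0.46, with run differences of -1.66 and -1.77. All 5 were listed lower, and all names come from genes listed on these arrays. The choice is loose: with the mean of a run in place of its median 1 of the 5 stayed among the nearest 5, and with each array left out in turn 1 to 4 did. Of the 5, DPP4 alone had the E-box in its upstream window, at 1 site.

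**Figure D4:**
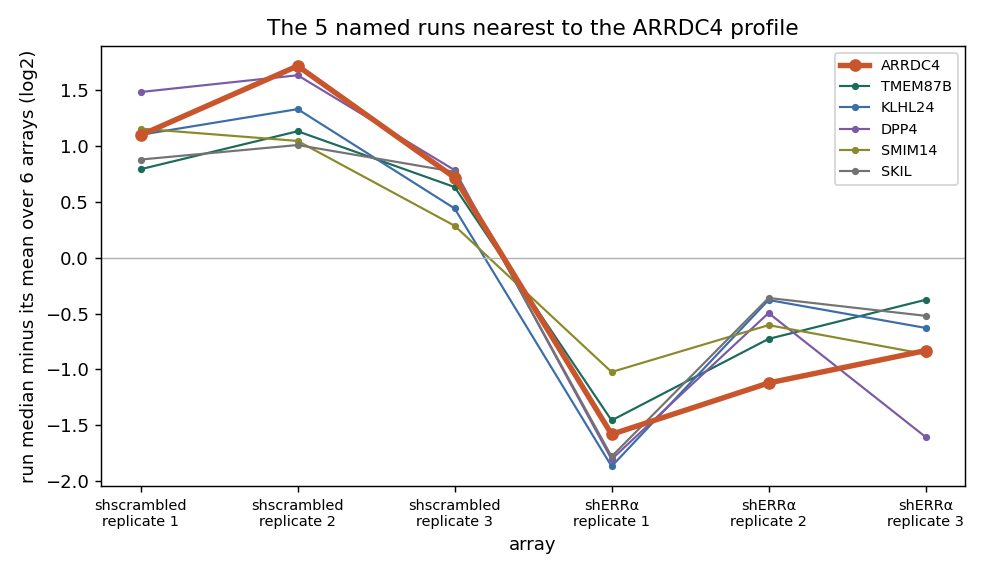
Run medians minus their mean over the 6 arrays (log2, vertical axis) by array for ARRDC4 (thick orange) and the 5 named runs nearest to it; lines only join the values of 1 gene, and the arrays have no order within a group. Every shscrambled value lies above 0 and every shERRα value below it, for all 6 genes. The 5 were chosen for nearness to ARRDC4, so they share this shape by choice.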

How the data were processed

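Total RNA of HCT116 cells was hybridised to Affymetrix whole-transcript arrays, 3 per group; the titles of the samples give their group and replicate number. Per the submitters' processing notes, the authors used RMA to make the deposited log2 values; the software version, array annotation and build were not given in the sources used here. All value columns matched a sample. Every value had lost its decimal mark. A string of 7 digits was read as 10 or more and others as 1 digit before the mark; 90472 values (5.86%) that could be read either way took the reading nearer to the probe set's unambiguous values, or the low reading in 159 probe sets that had none. Where both readings differed in distance by less than 4 log2 units the probe set was left out (1269), unless the deposited fold change settled it (12), which leaves 256161. The reading gave all 2122 deposited fold changes, ratios of shERRα over shscrambled, to 0.001 log2 units, and the p-values deposited beside them to 1% (2122 of 2122).

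Limma (version 3.58.1, R 4.3.3; lmFit, eBayes) was fitted on every probe set and on the median of every run of at least 3 consecutive identifiers, with Benjamini-Hochberg adjustment over all; the code was tested on simulated data. With 3 arrays a group, the number of arrays limits precision, and p-values reflect no more than the spread among these arrays, part of which may be technical. Names come from the deposited table, updated through RefSeq accessions (1948 of 2122 probe sets by accession). Members, lists and rules were chosen with earlier results of these data known. The rule for named genes took ARRDC4, every listed member of the lists, ESRRA as a check, and the 5 named runs nearest to the ARRDC4 profile. Alternatives were a replicate block, leaving out each array, 2 scalings, a filter on dim probe sets, other summaries of a run, array weights and another test.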

Additional observations from a re-analysis of the deposited data

How the results depend on the processing

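The ARRDC4 run difference stayed between -1.98 and -2.59 log2 units in the alternatives run for it (arrays left out, a replicate block, scalings, summaries, array weights and the undecided probe set), that of the named probe sets between -2.85 and -3.42, and that of the unlisted members between -0.85 and -1.58; array weights and the brighter probe sets were run for the run alone, the undecided probe set was not run for the named ones, and the dim filter and other test for counts alone. Leaving out each array gave -2.09 to -2.59, -2.85 to -3.42 and -0.85 to -1.56 in that order. These directions say little about stability, because the gene was listed on the same arrays. Including the undecided probe set, an alternative chosen after seeing the data, gave a run difference of -2.23 at its low and -1.98 at its high reading.

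The replicate block left the differences as they are and moved the number of probe sets meeting the deposited rule from 2122 to 1067. Same-numbered arrays deviated together only weakly (correlations of 0.068, 0.048 and 0.084), though each array correlated best with its own number. The rule gave 1124 probe sets above the median level, 4207 with limma's p and 1288 to 2400 with 1 array left out. Without shscrambled replicate 1 or 2, 0 probe sets of the ARRDC4 run met it, and without any other array 1 did. How much of this comes from fewer arrays and how much from the array left out was not tested. Adjusted calls of runs were 0 to 2 with 1 array left out, 78 with array weights and 157 with run means.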
